A study of Mus musculus with 2 samples.

Results

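The interferon-stimulated genes examined here were 41 genes named in a fixed list, out of 21911 genes with a deposited value. The list itself uses no expression value, although it was chosen with earlier results of these data known. They comprise the receptor chains through which interferon is sensed, the transcription factors that carry the signal, the feedback inhibitors and 30 effectors that interferon induces. All 41 were present in the table. Expression was measured by RNA-seq in 4T1 cells, a mouse mammary carcinoma line that metastasizes to lung, kept in culture for 48 h with PBS as the control or with potassium oxalate. The concentration of oxalate is given in the sample labels both as 20 mM and as 20 µM, and the study's methods give the latter. Each condition was represented by 1 library, so no difference between PBS and oxalate has a replicate check and no p-value is given. Values are FPKM, which counts sequenced fragments relative to transcript length and to the size of the library, and which therefore allows levels of different genes to be compared.

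Type I interferon, which includes interferon alpha and beta, binds IFNAR1 and IFNAR2 and activates JAK1 and TYK2. Signaling then passes to a complex that contains STAT2 and IRF9 and binds the interferon-stimulated response element in the promoters of antiviral genes. Type II interferon, interferon gamma, binds IFNGR1 and IFNGR2 and acts through the gamma-activated site. Many effectors are also kept at a low level in resting cells, and tumor cell lines are known to differ in this resting level.

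Marker genes of several cell types were read in both libraries, which does not identify the 4T1 line as such. All 6 epithelial markers were abundant in both libraries, with Epcam at 125.71 FPKM with PBS against 125.33 FPKM with oxalate. Of 9 leukocyte markers, 6 were listed at 0 in both libraries, among them Ptprc, which encodes CD45, whereas Cd14 stood at 53.6 and 53.0 FPKM and Csf1r at 4.93 and 5.18 FPKM. Siglech, a marker of the plasmacytoid dendritic cells that make large amounts of interferon, was listed at 0 in both, whereas Bst2, the other marker of these cells and itself a member of the list, stood at 18.66 and 17.48 FPKM. The 3 endothelial markers did not exceed 0.05 FPKM and the 3 alveolar markers were listed at 0, whereas of 4 fibroblast markers Col1a1 stood at 143.48 and 144.61 FPKM, Pdgfra at 1.88 and 1.93 FPKM, Col1a2 at 0.88 and 0.33 FPKM and Dcn at 0.31 and 0.33 FPKM. The log2 ratio of Col1a2 had a counting interval of -1.98 to -0.90, and the part of this difference in the results was not tested. The depth estimated from the smallest steps between FPKM values was about 56800000 reads with PBS and 36400000 reads with oxalate. Because these are bulk libraries, fewer expressing cells and less RNA per cell cannot be told apart in any of the values below.

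Promoter sequences are shown first because the list is named for the response to interferon and because that response runs through elements in promoters. RefSeq windows from 250 bases before to 50 bases after the start site (GRCm38.p6) were found for 32 members, and Oas2, Zbp1, Dhx58, Parp9, Parp14, Mx1, Iigp1, Mx2 and Usp18 had none. The response element was searched as GAAANNGAAA and the gamma-activated site as TTCNNNGAA, where N is any base, on both strands. The first was present in 16 of the 32 members (50%), against 3.99% of 27025 genes with a window. The second was present in 12 members (37.5%), against 9.55% of genes. A match is a description of letters and was not tested for binding, and the absence of a match says only that these letters are not in the window. The promoters of Isg15, Irf1 and Trim25 are given in full for the 250 bases before the start site, because they hold respectively 3 overlapping response elements, 1 gamma-activated site and no match, and because these 3 genes were among those that differed most between the libraries. Capitals mark the matches. Isg15 lies at chr4:156200819-156201068 on the minus strand, Irf1 at chr11:53769764-53770013 on the plus strand and Trim25 at chr11:88999153-88999402 on the plus strand.
Isg15: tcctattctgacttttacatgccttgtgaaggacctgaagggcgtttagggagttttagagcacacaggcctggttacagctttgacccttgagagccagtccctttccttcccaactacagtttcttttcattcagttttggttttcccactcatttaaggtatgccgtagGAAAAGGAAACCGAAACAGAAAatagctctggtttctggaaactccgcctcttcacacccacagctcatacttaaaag
Irf1: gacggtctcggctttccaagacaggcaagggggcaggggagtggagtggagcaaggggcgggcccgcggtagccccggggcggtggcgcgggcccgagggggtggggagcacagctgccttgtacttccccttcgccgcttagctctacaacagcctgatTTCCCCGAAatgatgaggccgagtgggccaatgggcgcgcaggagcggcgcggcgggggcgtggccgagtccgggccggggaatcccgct
Trim25: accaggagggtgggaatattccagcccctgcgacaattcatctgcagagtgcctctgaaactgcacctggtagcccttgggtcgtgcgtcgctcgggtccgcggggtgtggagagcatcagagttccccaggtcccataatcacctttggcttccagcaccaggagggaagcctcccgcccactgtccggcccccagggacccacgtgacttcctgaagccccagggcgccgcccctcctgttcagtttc

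The response element is compared below in 7 further promoters as 40 bases around 1 match, to show that its letters and their strand varied between members with very different levels. Ifit1, Ifit3, Rsad2 and Gbp2 held it as TTTCNNTTTC, which is the same element read on the other strand, and Oas3, Socs1 and Igtp held it as GAAANNGAAA. The match began 34 bases before the start site in Igtp, 59 in Gbp2, 75 in Oas3, 77 in Socs1, 85 in Ifit1, 120 in Rsad2 and 122 in Ifit3.
Ifit1: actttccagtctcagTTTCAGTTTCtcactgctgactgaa
Ifit3: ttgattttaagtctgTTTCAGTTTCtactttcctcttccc
Rsad2: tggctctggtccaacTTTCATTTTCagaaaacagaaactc
Gbp2: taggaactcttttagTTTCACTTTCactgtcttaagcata
Oas3: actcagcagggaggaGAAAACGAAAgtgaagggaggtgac
Socs1: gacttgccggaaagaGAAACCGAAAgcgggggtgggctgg
Igtp: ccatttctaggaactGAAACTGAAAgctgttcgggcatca

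The levels of members with and without each element were set side by side. With PBS, the 16 members with a response element had a median of 1.63 FPKM and the 16 members without one a median of 6.53 FPKM. The 12 members with a gamma-activated site had a median of 10.38 FPKM and the 20 without one a median of 1.825 FPKM, the opposite order, and neither split was tested. All 4 receptor genes, at 13.2 to 25.16 FPKM, were among the members without a response element, so element and role cannot be told apart here. The 9 members without a window are in none of these groups. Oas3 and Socs1, whose elements are printed above, stood at 1.02 and 6.12 FPKM, whereas Ifit3 was listed at 0.

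The 4T1 cells expressed the receiving end of the pathway at moderate levels and many of its antiviral effectors at less than 1 FPKM. With PBS, 23 of the 41 members (56.1%) reached 1 FPKM, against 46.9% of all genes listed, and 8 reached 10 FPKM. All 4 receptor genes and 4 of 5 transcription factors were above 1 FPKM, compared with 14 of 30 effectors (46.7%). The median over the 41 members was 1.41 FPKM with PBS and 1.76 FPKM with oxalate, against 0.38 and 0.39 FPKM over all genes listed. The member medians are values of different genes, Oasl1 with PBS and Oasl2 with oxalate, so their step is not a shift of the list. Gene by gene, the median log2 difference of the 23 members with a mean of at least 1 FPKM was -0.02. Of the 18 members that did not reach 1 FPKM in either library, Mx1 and Iigp1 were listed at 0 in both.

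**Figure D1:**
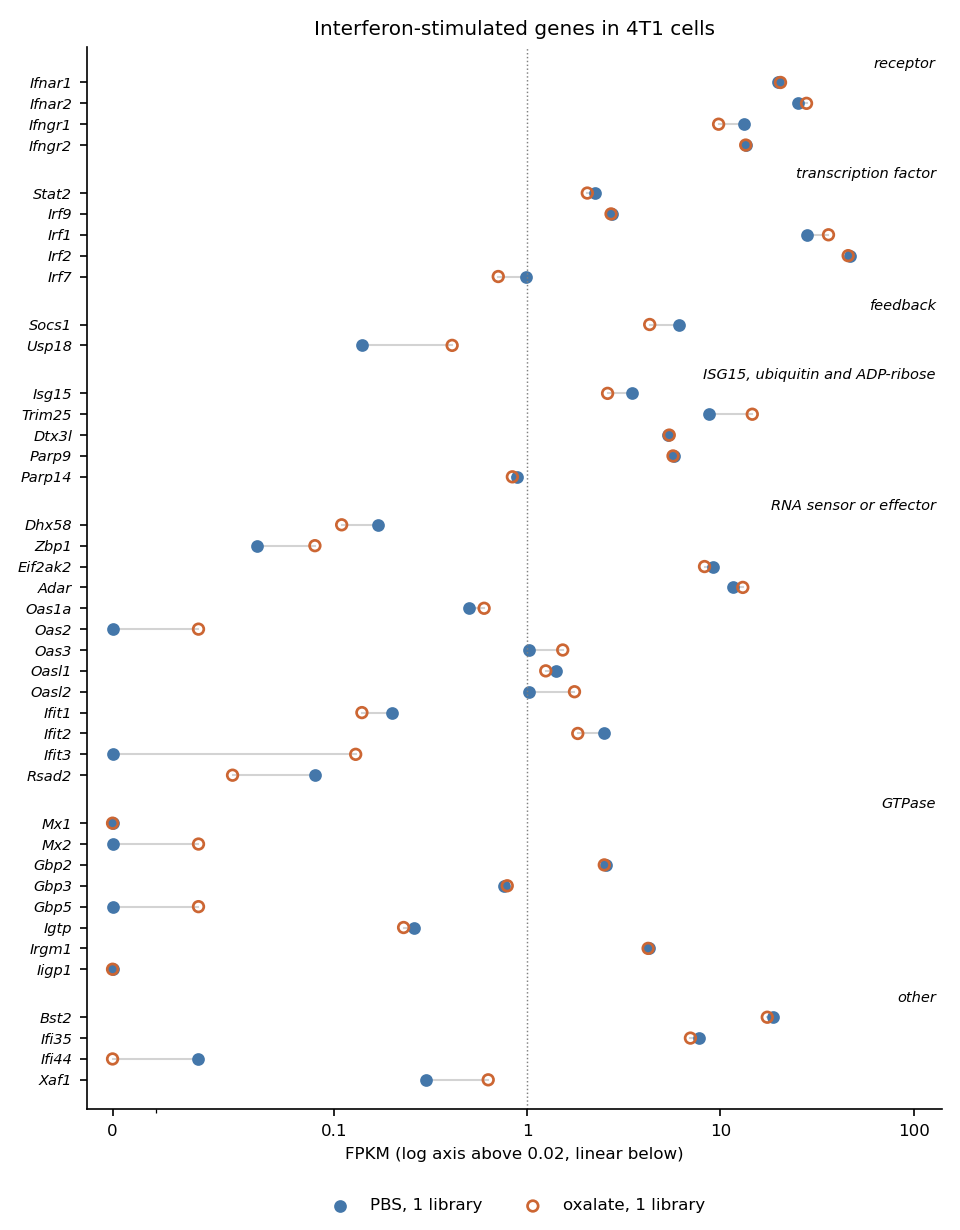
Level of each of the 41 interferon-stimulated genes in FPKM, ordered by role, with PBS (filled blue) and oxalate (open orange), 1 library each, on an axis that is logarithmic above 0.02 FPKM and linear below. The dotted line marks 1 FPKM, which all 4 receptors exceed and 6 of the 8 GTPases do not reach.

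All 4 receptor chains were expressed. Ifnar1, the chain that binds TYK2, stood at 19.85 FPKM with PBS against 20.46 FPKM with oxalate, and Ifnar2, the chain that binds JAK1, at 25.16 and 27.89 FPKM. Ifngr1, the ligand-binding chain for interferon gamma, stood at 13.20 and 9.79 FPKM, and Ifngr2, its signaling partner, at 13.59 and 13.52 FPKM. The genes Ifnar2, Ifnar1 and Ifngr2 lie in a cluster on chromosome 16 that also holds Il10rb (Ifnar2 at chr16:91372783-91405589, Ifnar1 at chr16:91485238-91507441 and Ifngr2 at chr16:91547072-91565623, GENCODE M21 on GRCm38), whereas Ifngr1 is on chromosome 10. The FPKM of Ifnar2 is summed over its transcripts, so soluble and membrane forms of the receptor cannot be told apart.

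The transcription factors spanned a wide range. Irf2, which competes with IRF1 for the same DNA element, was the highest of all members at 46.79 FPKM with PBS against 45.80 FPKM with oxalate. Irf1, an activator of type II interferon responses, followed at 27.92 and 36.23 FPKM. Stat2 and Irf9, which act together in the complex induced by type I interferon, were far lower. Stat2 stood at 2.24 and 2.05 FPKM and Irf9 at 2.76 and 2.72 FPKM. Irf7, which amplifies the production of interferon alpha, was just below 1 FPKM at 0.99 and 0.71 FPKM, the latter worth about 43 reads. The annotated span of Irf7 overlaps Phrf1 on the other strand by 45 bases, and Irf9 overlaps Rnf31 on the same strand by 123 bases. Phrf1 stood at 31.11 and 31.16 FPKM and Rnf31 at 8.58 and 8.37 FPKM, and reads in either overlap could have been counted for these low members.

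The feedback inhibitors diverged from one another. Socs1, which blocks JAK kinases, stood at 6.12 and 4.31 FPKM. Usp18, the protease that removes ISG15 from proteins and also restrains the receptor, was near the floor at 0.14 and 0.41 FPKM, worth about 9 and 17 reads.

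Among genes for ISG15, ubiquitin and ADP-ribose transfer, 4 of 5 exceeded 1 FPKM. Isg15, which encodes the ubiquitin-like modifier itself, stood at 3.50 FPKM with PBS against 2.61 FPKM with oxalate. Trim25, a ubiquitin ligase that acts on the RNA sensor RIG-I, stood at 8.74 and 14.62 FPKM. Dtx3l, a ubiquitin ligase, and Parp9, its ADP-ribosyltransferase partner, had nearly equal levels, at 5.34 and 5.44 FPKM for Dtx3l and 5.78 and 5.69 FPKM for Parp9. The ratio of Parp9 to Dtx3l was 1.08 with PBS and 1.05 with oxalate. These neighbors are transcribed in opposite directions and their annotated spans overlap by 682 bases, so that, with no strand information stated for the libraries, reads in the overlap cannot be assigned to either. Parp14, another ADP-ribosyltransferase, stood at 0.89 and 0.84 FPKM.

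Among the 13 genes that sense or act on RNA, Adar and Eif2ak2 were the highest in both libraries, and 7 were under 1 FPKM in both. Adar, which edits adenosine to inosine in double-stranded RNA, stood at 11.60 and 13.06 FPKM, and Eif2ak2, which encodes the kinase PKR that stops translation upon binding double-stranded RNA, at 9.17 and 8.28 FPKM. The inducible and constitutive forms of Adar are not separated in gene-level FPKM. The oligoadenylate synthetase family, which includes enzymes that make the activator of RNase L, was low throughout. Oasl1, which restrains Irf7 translation, stood at 1.41 and 1.25 FPKM, Oasl2 at 1.03 and 1.76 FPKM and Oas3 at 1.02 and 1.53 FPKM. Oas1a stood at 0.50 and 0.60 FPKM, and Oas2 was listed at 0 with PBS and at 0.02 FPKM with oxalate.

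The Ifit genes encode proteins that bind viral RNA, and Ifit2 was the only one of the 3 above 1 FPKM in either library, at 2.51 FPKM with PBS against 1.83 FPKM with oxalate. Ifit1 stood at 0.20 and 0.14 FPKM, and Ifit3 was listed at 0 with PBS and at 0.13 FPKM with oxalate. Rsad2, which encodes the antiviral enzyme viperin, stood at 0.08 and 0.03 FPKM. Also near the floor were Dhx58, which encodes the RIG-I relative LGP2, at 0.17 and 0.11 FPKM and Zbp1, a sensor of Z-form nucleic acid, at 0.04 and 0.08 FPKM.

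The GTPases were the lowest group, with a median of 0.13 FPKM with PBS and 0.125 FPKM with oxalate. Irgm1, a regulator of immunity-related GTPases and autophagy, stood at 4.26 and 4.23 FPKM. Gbp2, a guanylate-binding protein that attacks pathogen vacuoles, stood at 2.55 and 2.51 FPKM. The log2 ratios of both had counting intervals that held 0, from -0.21 to 0.19 for Irgm1 and from -0.27 to 0.22 for Gbp2, and the other 6 GTPases were under 1 FPKM. Gbp3, another guanylate-binding protein, stood at 0.76 and 0.79 FPKM and Igtp, an immunity-related GTPase also called Irgm3, at 0.26 and 0.23 FPKM. Gbp5, which promotes inflammasome assembly, and the antiviral gene Mx2 were each listed at 0 with PBS and at 0.02 FPKM with oxalate, whereas Mx1, the influenza restriction factor, and Iigp1, an immunity-related GTPase, were listed at 0 in both. Reads shared between close relatives in the Mx, guanylate-binding and immunity-related GTPase families, and between Igtp and the overlapping Irgm2, could be split between genes in ways that the table does not show.

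Of the remaining 4 members, Bst2 was well expressed. It encodes tetherin, which holds budding virus at the cell surface, and it stood at 18.66 and 17.48 FPKM. Ifi35, an interferon-induced leucine zipper protein, stood at 7.71 and 7 FPKM. Xaf1, a pro-apoptotic interferon target, stood at 0.30 and 0.63 FPKM and Ifi44, a cytoplasmic interferon-induced protein, at 0.02 FPKM with PBS and at 0 with oxalate.

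To place these levels in the pathway, 114 other genes of interferon production, signaling and response were read from the same libraries. Transcripts for sensing nucleic acid and for transmitting an interferon signal were present, and interferon transcripts were nearly absent from the values listed. Of 21 interferon genes, 19 were listed at 0 in each library, and the highest, Ifnz, reached 0.05 FPKM with PBS and 0.09 FPKM with oxalate, worth about 4 and 5 reads. All 9 sensing genes exceeded 1 FPKM in both libraries, with medians of 13.7 FPKM with PBS and 15.85 FPKM with oxalate. Among the kinases and factors, Jak1 stood at 46.43 and 44.99 FPKM and Tyk2 at 5.77 and 6.03 FPKM. A total of 67 other interferon-stimulated genes resembled the effectors of the list in their median, which was 0.85 FPKM with PBS and 0.75 FPKM with oxalate, against 0.825 and 0.815 FPKM for the 30 effectors. They differed at the upper end. With PBS, 17 of the 67 reached 10 FPKM, with a maximum of 478.5 FPKM, against 2 of the 30 effectors, with a maximum of 18.66 FPKM.

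**Figure D2:**
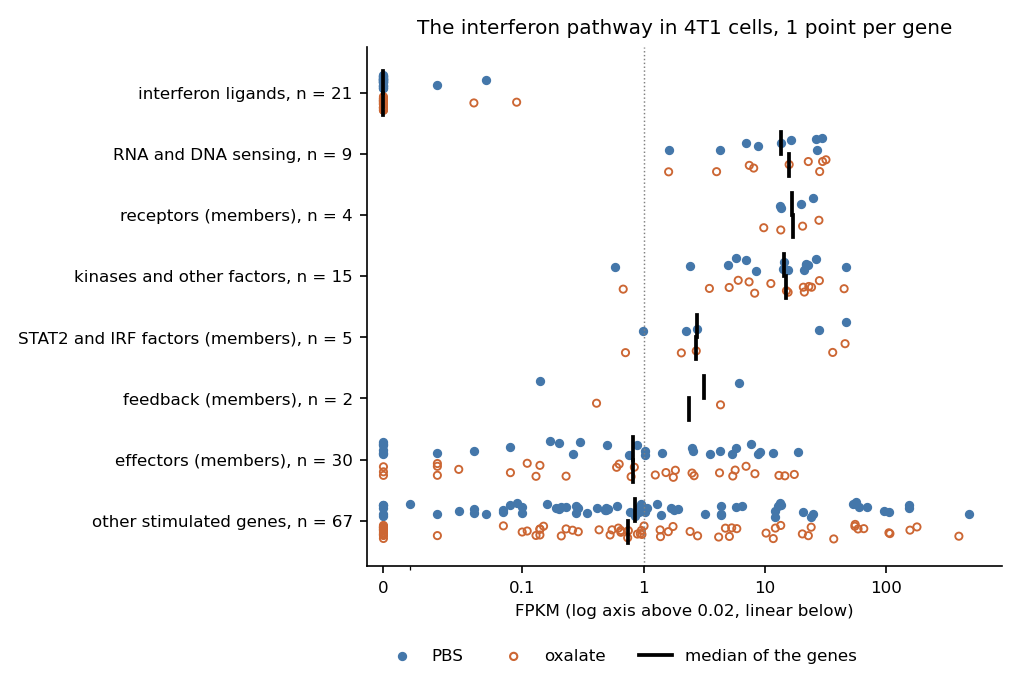
Levels in FPKM by step of the pathway, from interferon genes and sensing to receptors, signaling, feedback and effectors, with 1 point per gene, PBS and oxalate side by side and black bars at the medians. The interferon genes lie at or near 0, the 9 sensing genes and 4 receptors lie above 1 FPKM, and the 30 effectors have medians of 0.825 and 0.815 FPKM.

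The levels with oxalate were then set against those with PBS. No member with a mean of at least 1 FPKM differed 2-fold, and the list as a whole had no common direction. Of 23 members compared, 8 were higher and 15 lower with oxalate, and the median log2 difference was -0.02, beside 5198 higher, 5033 lower and a median of 0.0031 for the 10267 genes compared. Trim25, Oasl2, Irf1 and Oas3 were at least 1.2-fold higher with oxalate, and Socs1, Ifngr1, Isg15 and Ifit2 were at least 1.2-fold lower. The summed FPKM of all 41 members was 245.26 with PBS and 254.82 with oxalate, a ratio of 1.04 with a counting interval of 1.02 to 1.06. The ratio for the sum over all genes listed was 0.986. Irf1, from 27.92 to 36.23 FPKM, and Trim25, from 8.74 to 14.62 FPKM, had the largest gains. By role, the ratio was 1.08 for the transcription factors, which include Irf1. It was 1.2 for the genes of ISG15, ubiquitin and ADP-ribose transfer, which include Trim25. For the genes that sense or act on RNA it was 1.04, for the receptors 0.998 and for the GTPases 0.996. The remaining 4 members had a ratio of 0.941 and the feedback inhibitors 0.754. The ratio of 1.04 for the whole list was therefore not a gain shared by its roles.

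These counts were read against all genes. Differences were computed as log2((oxalate FPKM + 1)/(PBS FPKM + 1)), which understates differences of low genes, over genes with a mean of at least 1 FPKM. At 2-fold, 0.292% of genes were higher and 0.36% lower with oxalate, and 0 of 23 members were in either set. At 1.2-fold, 4.75% of genes were higher and 5.19% lower, and 4 members (17.4%) were in each set. Small differences were more frequent among low genes, and 9 of the 23 members had a mean under 5 FPKM. Between 1 and 5 FPKM, 16.6% of 1983 genes and 4 of 9 members passed 1.2-fold. Between 5 and 20 FPKM, 11.9% of 3718 genes and 3 of 10 members did so, and from 20 FPKM upward 5.48% of 4566 genes and 1 of 4 members. With 1 library per condition, these shares describe the libraries only.

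**Figure D3:**
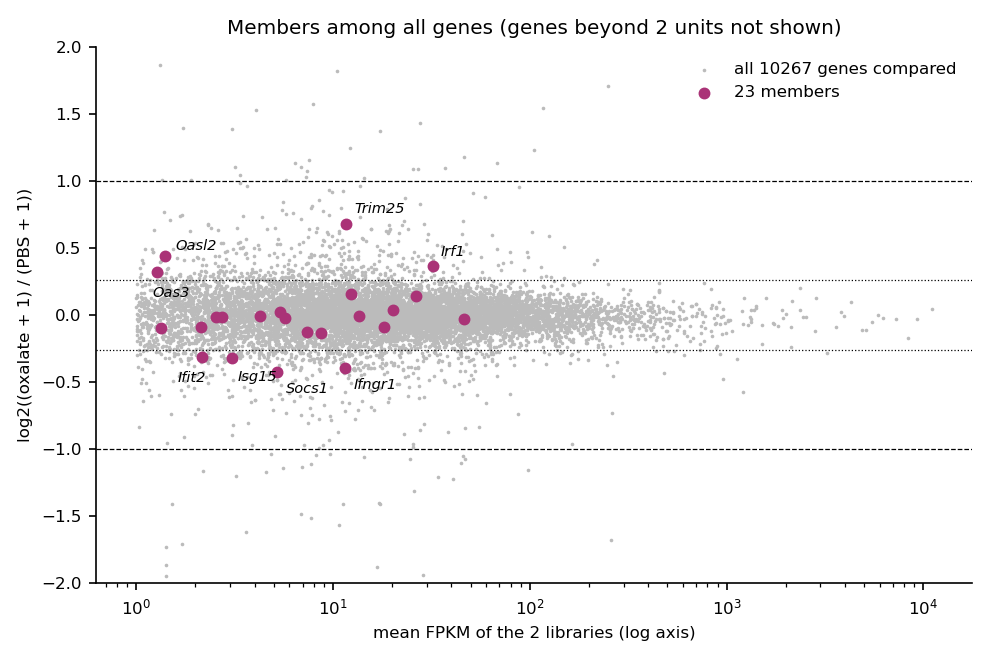
Log2 difference between oxalate and PBS (pseudocount 1) against mean FPKM on a logarithmic axis for the 10267 genes compared (grey, 6 genes beyond the axis not shown) and the 23 members (purple). Dashed lines mark 2-fold, which no member passes, and dotted lines mark 1.2-fold, which 4 members pass upward and 4 downward.

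The 4 members that were higher with oxalate were a ubiquitin ligase, a pair of synthetase-family genes and a transcription factor. Trim25 (chr11:88999376-89020293) had the largest difference of the 23 on the scale with a pseudocount, 0.68, from 8.74 to 14.62 FPKM. Its reads were estimated at 2084 and 2235, and the log2 ratio of its FPKM values without a pseudocount was 0.74, with a 95% interval of 0.66 to 0.83. This interval, and those that follow, are on the scale without a pseudocount and cover counting error only. Its promoter, printed above, held neither element. Oasl2 (chr5:114896936-114912234) differed by 0.44, from 1.03 to 1.76 FPKM, with about 80 and 88 reads, and without a pseudocount its ratio of 0.77, with an interval of 0.33 to 1.23, was above that of Trim25. Oas3 (chr5:120753098-120777661) differed by 0.32, from 1.02 to 1.53 FPKM, with an interval of 0.25 to 0.92. Both synthetase genes were thus above the counting error, although at levels of little more than 1 FPKM. The family as a whole went from a summed 3.96 to 5.16 FPKM, whereas Oasl1, also compared, had a log2 difference of -0.10 and a counting interval of -0.54 to 0.20. Irf1 (chr11:53770014-53778374) differed by 0.36, from 27.92 to 36.23 FPKM, with an interval of 0.28 to 0.47, and was the only member above 20 FPKM to pass 1.2-fold. The ratio of Irf2 to Irf1 was accordingly 1.68 with PBS and 1.26 with oxalate.

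The 4 members that were lower with oxalate also came from different roles. Socs1 (chr16:10782240-10785536) had the largest decrease, from 6.12 to 4.31 FPKM, a log2 difference of -0.42 with an interval of -0.67 to -0.34. Ifngr1 (chr10:19591949-19610229) differed by -0.40, from 13.20 to 9.79 FPKM, with about 1584 and 753 reads and an interval of -0.56 to -0.31. Its partner Ifngr2 differed by -0.0069, so that the ratio of Ifngr1 to Ifngr2 was 0.971 with PBS and 0.724 with oxalate. Isg15 (chr4:156199424-156200818) differed by -0.32, from 3.50 to 2.61 FPKM, on about 150 and 72 reads, and its interval of -0.84 to -0.0029 ended just short of 0. Ifit2 (chr19:34550694-34576419) differed by -0.31, from 2.51 to 1.83 FPKM, with an interval of -0.74 to -0.17. Isg15 and Ifit2, antiviral effectors of the same response as Oasl2 and Oas3, thus differed in the opposite direction.

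Of the other 15 members compared, 12 had a counting interval that held 0. Ifnar2 and Adar were higher with oxalate by 0.14 and 0.16, with intervals above 0, and Eif2ak2 was lower by a log2 difference of -0.13, with an interval of -0.25 to -0.05. Across all 23 members the interval lay above 0 in 6 and below 0 in 5, whereas it lay above 0 in 25% and below 0 in 23.8% of genes with a mean of at least 1 FPKM and a known length. Taking both directions, the interval excluded 0 in 11 of 23 members and in 48.8% of all genes. Bst2 differed by -0.09 with an interval of -0.26 to 0.07, Irf9 by -0.02 with an interval of -0.28 to 0.23 and Stat2 by -0.09 with an interval of -0.33 to 0.07, so that differences within these bounds could not be resolved at this depth.

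**Figure D4:**
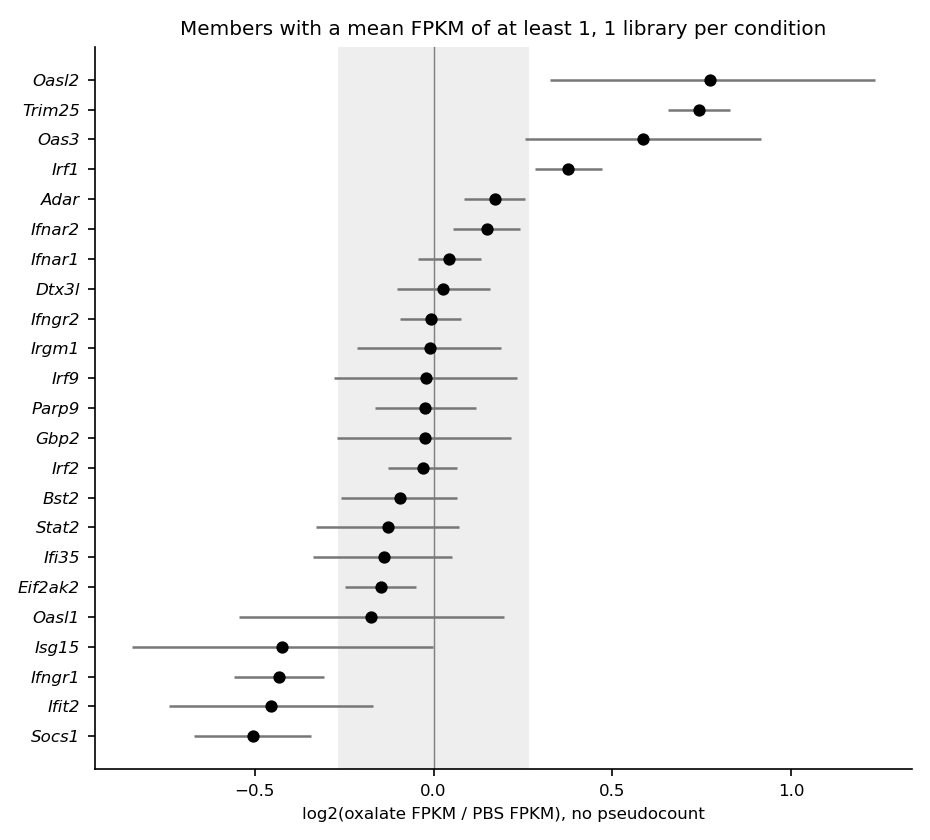
Log2 ratio of oxalate FPKM to PBS FPKM, without a pseudocount, for the 23 members with a mean of at least 1 FPKM, with bars for the 95% counting interval and a grey band for differences within 1.2-fold. Oasl2 at 0.77 and Trim25 at 0.74 lie highest, the latter with the shorter bar from 0.66 to 0.83, Socs1, Ifit2, Ifngr1 and Isg15 lie below the band, and 12 bars cross 0.

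The 18 members under 1 FPKM in both libraries were described apart. Their estimated reads reached from 0 to those of Parp14, about 375 with PBS and 227 with oxalate, with an interval of -0.33 to 0.16. Usp18 and Xaf1 were higher with oxalate, with FPKM ratios of 2.93 and 2.1 and intervals of the log2 ratio of 0.31 to 2.91 and 0.25 to 1.95, on about 9 and 17 reads for Usp18 and 22 and 30 reads for Xaf1. Ifit3 was listed at 0 with PBS and had about 8 reads with oxalate, with an interval from 1.41 upward. The related gene Ifit3b went the other way, from 0.04 FPKM with PBS to 0 with oxalate. Whether reads were shared between these genes was not tested. Rsad2 had about 17 and 4 reads, and its interval of -3.48 to 0.17 held 0. Oas2, Mx1, Mx2, Gbp5 and Iigp1 were worth fewer than 3 reads in both libraries, so no ratio is given for them. Irf7, at about 94 and 43 reads, had an interval of -1.04 to 0.05.

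Members with and without a response element were also set side by side. Of 9 compared members with the element, 1 (Oas3) was higher and 8 were lower with oxalate, with a median log2 difference of -0.09. The counting intervals of Socs1, Isg15 and Eif2ak2 lay below 0, whereas those of Bst2, Stat2, Irf2, Gbp2 and Irgm1 held 0. Among members with the element that were too low to be compared, Ifit3 was higher, with an interval above 0. Oas1a and Gbp3 were higher and Ifit1, Igtp and Rsad2 lower, all with intervals that held 0. Gbp5 was worth fewer than 3 reads in both libraries, so no direction is given for it. Of 13 compared members without the element, 7 were higher and 6 lower, and the median was 0.02. Of all 10267 genes compared, 5198 were higher and 5033 lower. When both libraries were rescaled to the same FPKM sum, the numbers were 2 higher and 7 lower with the element and 8 higher and 5 lower without it, because Irgm1 and Ifngr2 turned to higher. Of 9 compared members with a gamma-activated site, 4 were higher and 5 lower, and of 13 without one, 4 were higher and 9 lower. After the same rescaling these numbers were 4 and 5 with the site and 6 and 7 without it. No test was run on these splits.

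Among the 54 other pathway genes compared, 29 were higher, 24 lower and 1 equal, with a median log2 difference of 0.02. Lgals3bp and Lgals9 were the 2 genes past 1.5-fold. Lgals3bp, which encodes a secreted galectin-binding glycoprotein, stood at 13.50 and 24.08 FPKM, a difference of 0.79 with an interval of 0.70 to 0.97, and Lgals9, which encodes galectin-9, at 23.98 and 36.95 FPKM, a difference of 0.60 with an interval of 0.53 to 0.72. At 1.2-fold, 4 pathway genes (7.41%) were higher and 2 (3.7%) lower, beside 4.75% and 5.19% of all genes compared. The other 4, named after their values were seen, were Irf8 from 2.43 to 3.49 FPKM, Nmi from 14.48 to 11.20 FPKM, B2m, the light chain of MHC class I, from 478.54 to 397.08 FPKM and Tlr3. Tlr3, the endosomal sensor of double-stranded RNA, went from 16.52 to 22.79 FPKM, and Irf3, the factor it activates, from 26.47 to 28.13 FPKM, with an interval for Irf3 of -0.02 to 0.20. The kinases of the type I receptor, which carry the signal to the members, had log2 differences of -0.04 for Jak1, with an interval of -0.10 to 0.0092, and 0.05 for Tyk2, with an interval of -0.06 to 0.19.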

How the data were processed

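RNA from 4T1 cells was enriched for polyadenylated transcripts, copied into cDNA by random priming and read on an Illumina HiSeq instrument, with 1 library per condition. The deposited values are FPKM per gene, made by the authors and rounded to 2 decimals. The submitters' processing notes list Bowtie2 2.2.8 and TopHat2 2.1.1, and the quantifier, genome build and annotation are not given in the sources used here. Identifiers were matched to GENCODE M21 symbols (21848 found, 63 not). Reads were estimated from the steps of low FPKM values in genes under 0.6 kb (68 and 60 values, all within 0.2 of whole reads) and the mean coding transcript length, so they are approximate.

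Fold changes were log2((oxalate FPKM + 1)/(PBS FPKM + 1)) over genes whose FPKM averaged 1 or more, in Python 3.11.15 with pandas 2.3.3. Exact Clopper-Pearson 95% intervals used scipy 1.17.1 and cover counting error only. The code was tested on simulated data. All 41 members are named, and of the other 114 pathway genes those at least 1.5-fold different. Other pathway genes named were chosen after their values were seen. The members and lists were chosen with earlier results of these data known. Alternatives were other pseudocounts, filters, scalings and thresholds.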

Additional observations from a re-analysis of the deposited data

How the results depend on the processing

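Under all alternatives run, the median difference of the members kept its sign, between -0.02 and -0.0016, and the ratio of their summed FPKM stayed between 1.04 and 1.06. For the sum, the members left out in turn were Irf2 and the receptors. No alternative left out Irf1 or Trim25, which had the largest gains, so this range does not show that the ratio is stable without them. The ratio was highest in the roles that hold them, at 1.2 with Trim25 and 1.08 with Irf1. In the other roles it lay between 0.754 and 1.04. The number of members past 2-fold was 0 at the main setting, 1 (Trim25) when the threshold was 1.5-fold, and 8 when a pseudocount of 0.001 was joined with all genes listed, a setting chosen after seeing the data: Gbp5, Ifit3, Mx2, Oas2, Usp18 and Xaf1 were then higher and Ifi44 and Rsad2 lower, all under 1 FPKM, while 3.64% of all genes listed were higher and 5.3% lower. The 8 members past 1.2-fold became 4 with a mean of at least 5 FPKM, which leaves fewer genes, 1 at 1.5-fold and 20 under the joined setting. The 6 pathway genes past 1.2-fold became 10 with a pseudocount of 0.1, 10 with 0.001, 10 with all genes listed, 18 at 1.1-fold and 2 at 1.5-fold. The 23 members above 1 FPKM with PBS became 14 at 5 FPKM. Rescaling both libraries to the same sum moved the median of all genes by 0.0199 and turned Ifngr2 and Irgm1 from lower to higher, both within counting error. No paired analysis was possible because PBS and oxalate had 1 library each, and for the same reason no replicate could be left out. Depth allows no ratio for the 5 members worth fewer than 3 reads in both libraries, and the spread between cultures is unknown.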
